A study of Drosophila melanogaster with 32 samples.

Results

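The transcriptomes of non-Smurf flies were compared between 30 and 20 days of age, the earlier interval of adult ageing that the series covers. The comparison holds 10 of the 32 samples of the series. The 4 samples of 20 days and the 6 samples of 30 days were chosen by their labelled state and age, with no measured value. Each sample was a pool of 8 whole mated Drosophila melanogaster females of the Drs-GFP line, a reporter line for the antifungal peptide gene Drosomycin, and all flies had been fed the blue food dye FD&C #1. A Smurf is a fly in which the ingested dye has spread from the gut through the body, and a non-Smurf is a fly in which it has not. Non-Smurfs were frozen at the moments at which Smurfs were collected, in a mixed collection (M), 5 hours later (5h) or 24 hours later (1d). The 20-day group had 1 mixed and 3 1-day samples (M-1, 1d-a, 1d-b and 1d-c). The 30-day group had 1 mixed, 2 5-hour and 3 1-day samples (M-7, 5h-c1, 5h-c2, 1d-g, 1d-h and 1d-i), and M-7 was labelled 32 days. The 20-day group had no 5-hour sample, so the 1-day samples alone, 3 of each age, were compared as well.

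The flies came from 1 synchronous population, so age and the date of collection cannot be told apart. The pools are separate groups of flies, and p-values therefore measure the spread between pools of 1 population. In whole-body RNA, fewer cells of a type and less RNA per cell cannot be told apart.

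Ageing flies are known for a rising expression of innate immune genes. In Drosophila, bacterial peptidoglycan is sensed by peptidoglycan recognition proteins, the Imd and Toll pathways activate the NF-kappaB factors Rel (Relish) and dl/Dif, and these induce the genes of secreted antimicrobial peptides in the fat body and in epithelia. Other functions known to decline with age in females are egg production and the secretion of digestive enzymes.

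The total count per sample was 12572809 to 16110543 at 20 days and 14595583 to 22798065 at 30 days, so that the 3 1-day samples of 30 days were all deeper than those of 20 days. The part of this gap in the results below was not tested. Markers of mated females were abundant in all samples: the summed level of the yolk protein genes Yp1, Yp2 and Yp3 with the yolk receptor gene yl was 15245 to 24018 CPM (counts scaled to the library size with TMM factors) at 20 days and 9316 to 21952 CPM at 30 days. Of 73 male-tissue genes, 46 had no count in any of the 10 samples, and their sum was 40.0 to 50.3 CPM. The dosage compensation RNA lncRNA:roX2, which males express, was at most at 0.137 CPM. The other such RNA, lncRNA:roX1, was higher, at 2.76 to 3.25 CPM at 20 days and 2.37 to 4.04 CPM at 30 days. It overlaps other annotated elements on both strands.

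One library stood apart. In 5h-c1, mitochondrially encoded genes took 6.07% of the counts, against 3.82% to 5.15% in the other 9 samples. The 5.15% was that of 5h-c2. The 5-hour Smurf samples of 30 days had 6.24% and 5.73%, and the 5-hour non-Smurfs of 40 days 4.22% and 3.76%. The chi-square statistic per degree of freedom in pairs of samples of one age was at least 48.9 in the 5 pairs with 5h-c1 and at most 30.9 in the other 16. This statistic also grows with depth, and 5h-c1 was the deepest of the 10 libraries (22798065 counts). Of the 6 samples of 30 days, 5h-c1 had the lowest summed levels of Jonah proteases, trypsins, bomanins, yolk, chorion and cytosolic ribosomal protein genes, and the highest of germline and DNA replication genes. Where leaving it out changed a call of a gene named here, both adjusted p-values are given, except for the genes of the closing section.

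The PCA of the 10 samples asked whether age was a main axis of variance. PC1, with 39.0% of the variance, had scores of -7.06 to 1.98 at 20 days and -9.75 to 20.0 at 30 days, and the highest score was that of 5h-c1. The difference in mean PC1 of 5.81 was within the spread of the samples (two-sided exact permutation test over 210 splits, p = 0.329). PC2, with 23.5% of the variance, separated 9 of the 10 samples by age: the 20-day samples lay between -10.4 and -2.88, and the 30-day samples between 2.94 and 9.40 except 5h-c1, at -3.78. Its difference in mean of 9.81 passed the exact test (p = 0.0191, adjusted over both components 0.0381), but not when 1d-c (adjusted p = 0.0714), 1d-h (0.0556) or 5h-c1 was left out, nor on log2 CPM (difference 13.97, adjusted p = 0.0571). Without 5h-c1 the first component, instead of the second, differed by 11.5 between the ages (exact p = 0.0159, adjusted 0.0317). The 1-day samples alone allow no p under 0.1 (observed exact p = 0.2 for both components).

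**Figure D1:**
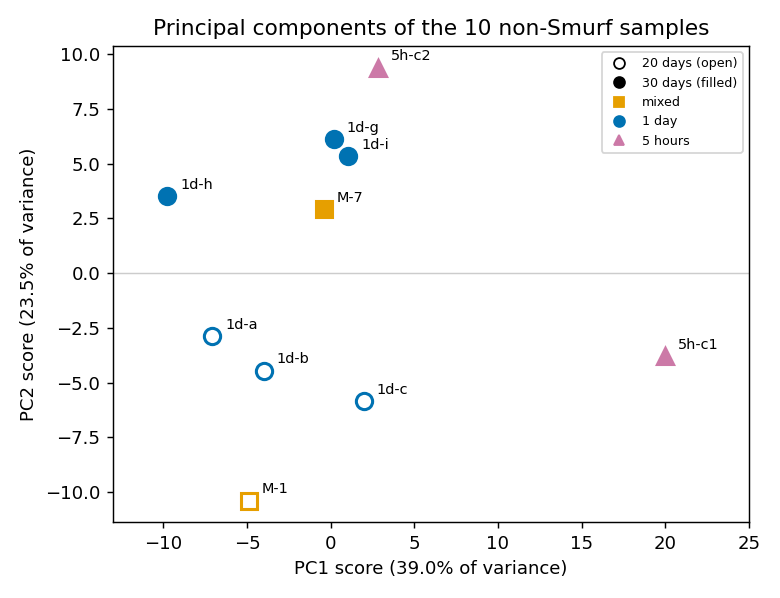
PC1 and PC2 scores of the 10 non-Smurf samples (vst values of the most variable genes), with open symbols for 20 days, filled symbols for 30 days and shapes for the collection. The open symbols lie below 0 on PC2 and the filled ones above 2.9, except 5h-c1 at -3.78, which also lies apart on PC1 at 20.0.

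Few single genes passed the test. Of 10062 genes tested, 4 were differentially expressed (DEGs) between 30 and 20 days in the 10 samples (0.0398% of those tested; edgeR quasi-likelihood test, two-sided, Benjamini-Hochberg (BH) adjusted p under 0.05), 1 downregulated and 3 upregulated with age. Scp1, a sarcoplasmic calcium-binding protein gene (FBgn0020908, chromosome 2R, 2932595 to 2968052 in the BDGP6.54 annotation), had 46.0, 39.0, 38.7 and 32.9 CPM in the 4 samples of 20 days. At 30 days its lowest, median and highest levels were 10.2, 12.6 and 15.5 CPM. The ages did not overlap, and the gap between them was wider than the range within either age. Scp1 fell to 0.320 of its level (log2FC -1.64 ± 0.12 SE, edgeR BH-adjusted p = 0.000216), in 6 of 6 samples.

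The 3 upregulated DEGs changed less. Cyp4p3, a cytochrome P450 gene of the Cyp4 family (FBgn0033397, 2R, 9242320 to 9244410), had 19.5, 16.1, 18.8 and 16.1 CPM at 20 days, against 26.2, 29.3 and 33.8 CPM (lowest, median and highest) at 30 days. CG7720 (FBgn0038652, 3R, 18759236 to 18795169) had 45.3, 42.1, 41.9 and 34.5 CPM at 20 days, against 61.6, 73.2 and 92.2 CPM at 30 days. Apc, the homologue of the tumour suppressor APC of the Wnt pathway (FBgn0015589, 3R, 28832301 to 28844748), had 165.2, 174.4, 171.7 and 181.9 CPM at 20 days, against 206.7, 212.5 and 217.5 CPM at 30 days. In each of them every 30-day sample lay above every 20-day sample. The log2FC was 0.75 ± 0.11 for Cyp4p3, 0.89 ± 0.13 for CG7720 and 0.29 ± 0.04 for Apc (SE, n = 6 and 4), each with an edgeR BH-adjusted p of 0.0451, close to the threshold. As each of the 10 samples was left out in turn, Cyp4p3 and Apc were called in 2 and CG7720 in 3 of the 10 fits, those without 5h-c1 among them. Over all genes tested, 1.89% had all 30-day samples above all 20-day samples and 0.795% had all of them below.

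In the 1-day samples, 5 of 10021 genes passed (0.0499%), 4 of them upregulated, and 3 of these 4 are immune genes. Only Scp1 was called in both comparisons (log2FC -1.53 ± 0.15 in the 1-day samples, edgeR BH-adjusted p = 0.0269). Pirk (symbol pirk, FBgn0034647), an inhibitor of the Imd pathway that Imd signalling itself induces, had 7.48, 6.99 and 6.14 CPM at 20 days and 18.1, 17.5 and 16.5 CPM at 30 days (log2FC 1.34 ± 0.11, adjusted p = 0.0157). Listericin (FBgn0033593), an antibacterial peptide gene, had 11.4, 8.45 and 9.33 CPM at 20 days and 23.9, 20.1 and 23.5 CPM at 30 days (log2FC 1.20 ± 0.13, adjusted p = 0.0448). These 6 samples fell into ranges that do not overlap for both genes. Tep2 (FBgn0041182), a thioester-containing protein gene of the complement-like family, had 247.6, 225.6 and 214.8 CPM at 20 days and 384.9, 365.3 and 359.5 CPM at 30 days (log2FC 0.69 ± 0.06, adjusted p = 0.0180). It overlaps exons of CG43235 on the other strand, and the strand setting of the counting is not given in the sources used here. CG14245 (FBgn0039452) had 12.4, 13.6 and 12.3 CPM at 20 days and 37.4, 39.6 and 30.4 CPM at 30 days (log2FC 1.49 ± 0.12, adjusted p = 0.0157), the largest fold of the 5. Of all genes tested in these 6 samples, 10.8% had the 30-day samples above all 20-day samples and 7.72% below.

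In the samples not collected at 1 day these 4 upregulated genes were less uniform. Listericin in M-1 was at 17.3 CPM, above the 12.2 CPM of 5h-c1, and pirk in M-7 was at 7.80 CPM, next to the 7.48 CPM of 1d-a. Tep2 in 5h-c1 was at 235.8 CPM and CG14245 in 5h-c1 at 15.3 CPM, each at or near its 20-day level. In the 10 samples their log2FC was 0.61 (Tep2) to 1.22 (CG14245) with edgeR BH-adjusted p between 0.114 and 0.23. Without 5h-c1, CG14245 (adjusted p = 0.00201), Tep2 (0.0123) and pirk (0.0470) were called in the comparison of 9 samples, and Listericin was not (0.0608).

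**Figure D2:**
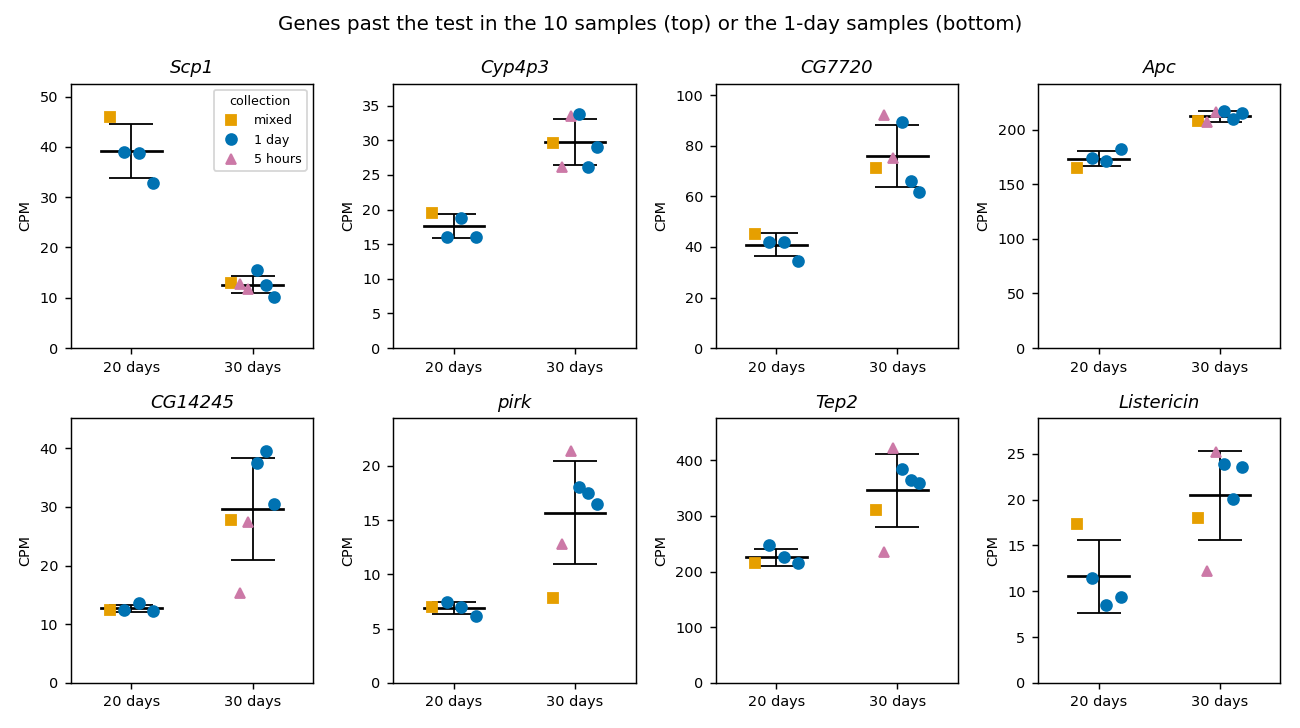
CPM of the 4 DEGs of the 10 samples (top) and of the 4 upregulated DEGs of the 1-day samples (bottom) at 20 and 30 days, with a point per sample, its shape for the collection, and the mean ± SD. Scp1 lies at 32.9 to 46.0 CPM at 20 days and 10.2 to 15.5 CPM at 30 days; in the bottom row the 5-hour and mixed samples spread more widely than the 1-day samples.

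The number of DEGs depended on single libraries, and Scp1 did not. Leaving out 5h-c1 raised the count from 4 to 91, or 0.91% of the 9997 genes tested, with 82 upregulated and all of the 4 among them. Leaving out 1d-h gave 12, and leaving out any other sample gave 1 or 2. DESeq2 on the same 10 samples called 198 genes (1.97%), 144 of them upregulated, and on the 1-day samples 289 (2.88%). On simulated data of both designs the share of false genes among the calls of DESeq2 was above the nominal level and above that of edgeR, so its calls, here and below, are given as an alternative only. In the design of the 1-day samples the share of edgeR was above the nominal level too. Scp1 was called in every one of these fits of the 10 samples and its log2FC stayed between -1.72 and -1.55 as each sample was left out. In the 1-day comparison no gene was called once any one of the 3 20-day samples was left out, while 151 were called without 1d-h.

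**Figure D3:**
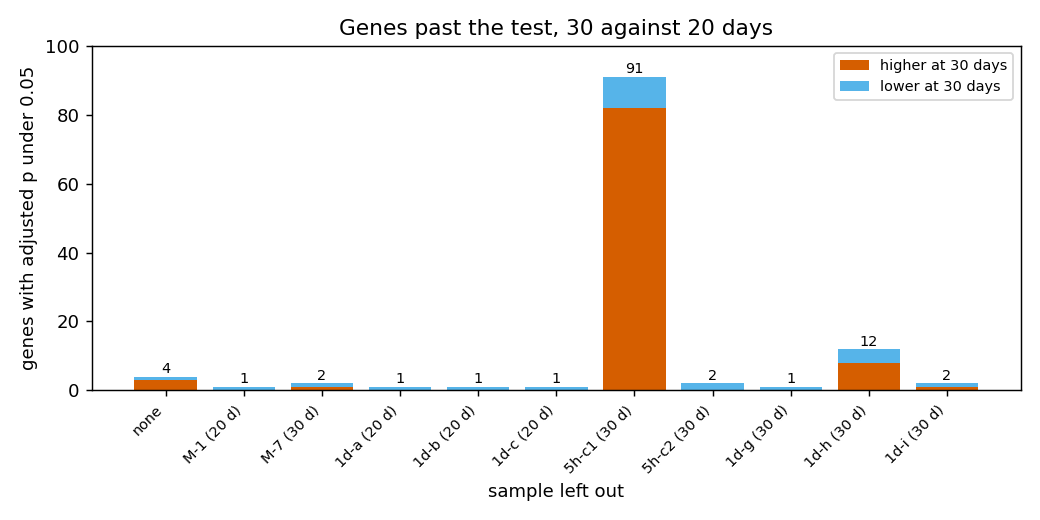
Number of genes with an edgeR BH-adjusted p under 0.05 in the 10 samples and with each sample left out in turn (x axis), split by direction. The bar without 5h-c1 stands at 91 genes, 82 of them higher at 30 days, and the others at 1 to 12.

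The antimicrobial peptide genes were the list with the highest median change. No member passed the edgeR test across all genes in either comparison. All 14 tested members had a log2FC above 0, with a median of 1.51 against 0.00 over all genes tested, and 8 of the 14 were higher at an unadjusted p under 0.05, where 6.31% of all genes were. In the 1-day samples the median was 1.91 and 13 of 14 had such a p, where 9.43% of all genes did. The 15th member, CecB, was filtered for low counts. By DESeq2, 4 members were called in the 10 samples: AttC, DptB, CecC and AttB, with the limit on its calls given above.

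AttC, an attacin gene induced by Imd signalling, had the smallest adjusted p. It had 97.0, 44.7, 47.1 and 55.8 CPM at 20 days (M-1, 1d-a, 1d-b and 1d-c), against 102.4, 202.3 and 339.1 CPM (lowest, median and highest) at 30 days. The ages do not overlap, but the lowest 30-day sample, 1d-h, lay next to M-1. The log2FC of AttC was 1.77 ± 0.33 (edgeR BH-adjusted p = 0.114; 0.0470 without 5h-c1; DESeq2 0.00056), and it overlaps CG4744 on the other strand.

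The diptericin genes DptA and DptB, further Imd targets, varied more. DptA had 32.1, 11.8, 8.13 and 12.2 CPM at 20 days, against 26.2, 32.0 and 139.5 CPM at 30 days. DptB had 25.5, 11.9, 8.86 and 10.4 CPM at 20 days, against 25.4, 36.8 and 83.5 CPM at 30 days. In both, M-1 lay within the 30-day range while the 1-day samples of 20 days lay below it. The log2FC was 1.91 ± 0.61 for DptA (edgeR BH-adjusted p = 0.286) and 1.73 ± 0.44 for DptB (0.198), and DptB overlaps CG43109 on the other strand.

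The cecropin gene CecA1 had the highest log2FC of the list in the 10 samples, 2.12 ± 0.80 (edgeR BH-adjusted p = 0.393), but not without 5h-c1, where it was at 1.69 and DptA at 2.04. Its levels were 5.71, 1.17, 1.87 and 2.52 CPM at 20 days, against 1.69, 10.5 and 28.5 CPM at 30 days. The 30-day samples M-7 and 1d-h were at 20-day levels, so the ages overlapped, and 5h-c1 held the highest level. CecA2 (log2FC 1.68 ± 0.81, edgeR BH-adjusted p = 0.55) had the same order of samples at its extremes, with 18.6 CPM in 5h-c1 and 1.14 CPM in 1d-h. CecA1 and CecA2, like AttA and AttB, are near-identical neighbouring copies between which reads may have been split.

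Drs, the gene whose promoter the reporter of this line carries and a target of Toll signalling, had the lowest log2FC of the list, 0.17 ± 0.46 (edgeR BH-adjusted p = 0.939). Its levels were 683.3, 148.7, 213.4 and 129.1 CPM at 20 days, against 189.7, 301.6 and 586.4 CPM at 30 days. M-1 was above all 6 samples of 30 days, and the 1-day samples alone had a log2FC of 1.18 ± 0.38 (adjusted p = 0.269). The summed level of the antimicrobial peptide genes was 1014 CPM in M-1 and 272.6 to 335.8 CPM in the other 3 samples of 20 days, against 443.9 to 1475 CPM at 30 days. Without M-1 the median log2FC of the list was 1.83 and 14 of 15 tested members were higher at an unadjusted p under 0.05, where 556 of 10192 genes were. None had an adjusted p under 0.05. M-1 held the highest summed level of this list at 20 days, so a larger rise without it was built in and is no further support.

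**Figure D4:**
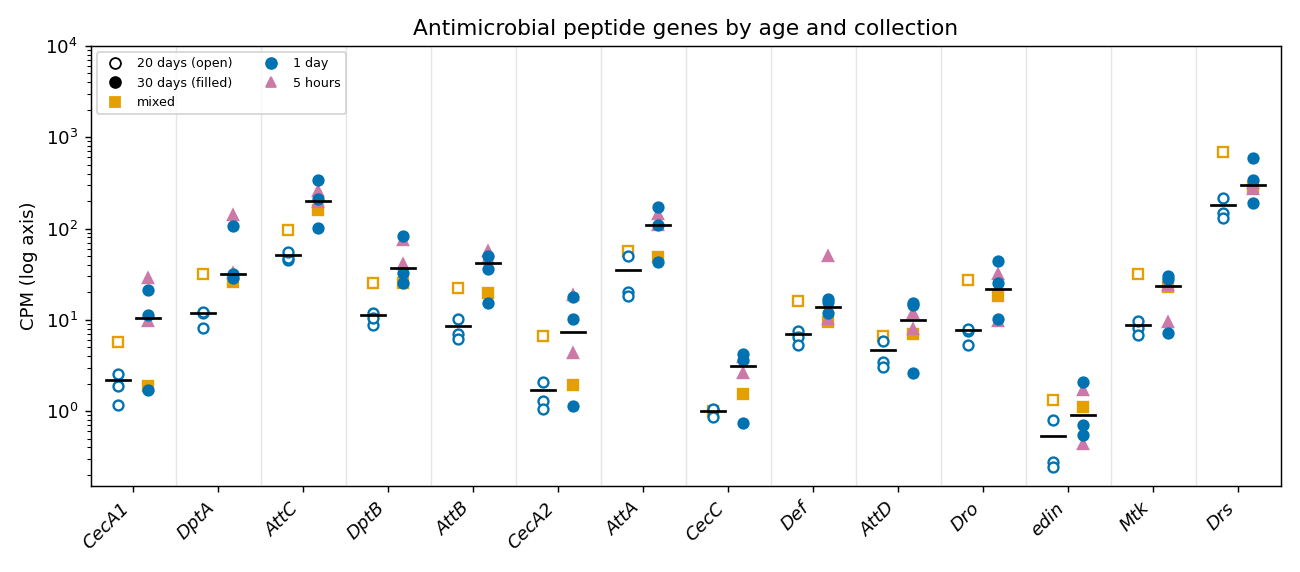
CPM on a log axis of the 14 tested antimicrobial peptide genes, ordered by log2FC, with open symbols for the 4 samples of 20 days, filled symbols for the 6 samples of 30 days, shapes for the collection and bars for the medians. The median at 30 days is above that at 20 days in each gene, and the open square of M-1 lies above the other 20-day samples in all but CecC.

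Other groups of immune genes had smaller medians above 0. For the counts at an unadjusted p under 0.05, here and below, 6.31% of all genes were higher and 3.65% lower in the 10 samples. In the 1-day samples these shares were 9.43% and 3.26%. Of 11 tested peptidoglycan recognition protein genes, 6 were higher at an unadjusted p under 0.05 and 10 had a log2FC above 0 (median 0.38); none was called by edgeR in the 10 samples, 3 without 5h-c1 and 5 by DESeq2. PGRP-SA, which senses Gram-positive bacteria upstream of Toll, had the highest log2FC of them, 1.14 ± 0.29 (edgeR BH-adjusted p = 0.198, without 5h-c1 0.0459, DESeq2 0.0327). It had 14.9, 31.7, 38.4 and 25.5 CPM at 20 days and 32.0, 61.3 and 93.6 CPM at 30 days, where only 5h-c1 lay within the 20-day range. The lowest was PGRP-SC1b (log2FC -0.09), which has a near-identical copy. Of 24 Toll and Imd signalling genes, 5 were higher at an unadjusted p under 0.05 and none was lower, with a median log2FC of 0.08 and extremes at pirk (1.18) and the recognition protein gene GNBP3 (-0.13).

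Rel, the NF-kappaB factor of the Imd pathway, had 211.5, 215.6, 203.0 and 195.6 CPM at 20 days and 228.7, 256.7 and 325.6 CPM at 30 days. The ages did not overlap, and the log2FC was 0.34 ± 0.09 (edgeR BH-adjusted p = 0.198, DESeq2 0.0319). For dl, the factor of the Toll pathway, the log2FC was 0.17 ± 0.04 (edgeR 0.174, DESeq2 0.0299), again with all 30-day samples above those of 20 days.

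The bomanins, short secreted peptides induced by Toll, differed between the comparisons. In the 10 samples none of the 12 had an unadjusted p under 0.05 and the median log2FC was 0.06, while in the 1-day samples 9 of 12 were higher at that p, with a median of 0.40. Without 5h-c1 the median of the bomanins was 0.17. The extremes in the 10 samples were BomS1 (0.36 ± 0.36) and BomT3 (-0.11 ± 0.17). In M-1 and 5h-c1, which only the comparison of 10 samples holds, the summed bomanin level was the highest of 20 days (1117 CPM) and the lowest of 30 days (597.7 CPM).

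Of 10 tested genes of JAK-STAT signalling and its stress-induced Turandot targets, 4 were higher at an unadjusted p under 0.05 (median log2FC 0.34). The Turandot gene TotM was highest, at 71.0, 92.3, 97.1 and 79.7 CPM at 20 days and 74.2, 193.7 and 550.8 CPM at 30 days (log2FC 1.65 ± 0.46, edgeR BH-adjusted p = 0.21, DESeq2 0.0433). One 30-day sample, 1d-g, was at the 20-day level. The receptor gene dome was lowest, with a log2FC of -0.00254. Of 11 thioester protein and haemocyte marker genes, 4 were higher at an unadjusted p under 0.05 and Hml, the haemocyte gene hemolectin, was lowest (-0.42 ± 0.29, adjusted p = 0.698), while Tep2 was highest (0.61). Of 17 genes of melanization and dopamine synthesis, 5 were higher and 1 lower (median 0.27), between the N-beta-alanyldopamine synthase gene e (0.83) and the prophenoloxidase gene PPO3 (-0.38).

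No tested member of the egg production lists (vitelline membrane, chorion, yolk and germline) was called by edgeR or DESeq2 in the 10 samples. The vitelline membrane genes, which encode an eggshell layer, had a median log2FC of -0.92, and all 9 were below 0, from Vml (-0.62) to Fcp3C (-1.43 ± 0.73, edgeR BH-adjusted p = 0.575). Their summed level was 801.5 to 2509 CPM at 20 days and 437.9 to 1587 CPM at 30 days, with M-1 highest at 20 days and 1d-h highest at 30 days. In the 1-day samples their median was -0.12, and without M-1 in the 10 samples it was -0.39. At an unadjusted p under 0.05, 1 of the 9 was lower and 0 were higher, where 3.65% of all genes were lower.

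The chorion genes, of the outer eggshell, had a median log2FC of -0.23, which was 0.02 without 5h-c1, and ranged from -1.04 ± 0.66 (Cp7Fb) to 0.45 ± 1.17 (Cp7Fa), and Cp7Fa was at 109.5 CPM in 1d-h and 0.657 CPM in 5h-c1 at the same age. The yolk protein gene Yp3 had 5050, 3200, 3617 and 2766 CPM at 20 days and 1194, 1732 and 3268 CPM at 30 days. Only 1d-h of the 6 samples of 30 days lay within the 20-day range, and the log2FC was -0.89 ± 0.27 (edgeR BH-adjusted p = 0.252). Yp1 and Yp2 had a log2FC of -0.51 ± 0.23 and -0.46 ± 0.24 (adjusted p = 0.5 and 0.58), and yl, the receptor gene in the oocyte, one of -0.06. Yp1 overlaps an antisense gene. The germline genes had a median of 0.01, with none of 20 at an unadjusted p under 0.05.

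Digestive proteases had medians below 0, with no member called by edgeR. Of the 16 Jonah proteases, secreted by the midgut, 7 were lower at an unadjusted p under 0.05 and none higher (median log2FC -0.45; 0 called by edgeR, 3 lower by DESeq2), and in the 1-day samples 5 were lower, where 3.26% of all genes were (median -0.12). Jon99Fi was lowest, with 198.7, 102.1, 78.6 and 64.2 CPM at 20 days and 14.9, 34.7 and 75.6 CPM at 30 days (log2FC -1.51 ± 0.43, edgeR BH-adjusted p = 0.22), and M-7 alone lay above the lowest sample of 20 days. Jon25Bi was highest (0.18 ± 0.32). Among 12 trypsins 3 were lower and 1 higher at an unadjusted p under 0.05, where 3.65% and 6.31% of all genes were. The trypsin gene thetaTry had 32.6, 36.1, 48.6 and 35.6 CPM at 20 days and 12.7, 22.5 and 26.0 CPM at 30 days, without overlap (log2FC -0.92 ± 0.20, edgeR BH-adjusted p = 0.134, DESeq2 0.00132), and Try29F (0.59 ± 0.26) was highest but overlaps CG18661 on the same strand. The maltases and amylases had a median of 0.12, which was 0.25 without 5h-c1 and 0.24 in the 1-day samples.

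Metallothioneins, which bind metals and are induced by them, were higher in 4 of 5 tested members at an unadjusted p under 0.05 and above 0 in all 5 (median log2FC 0.52). Of all genes, 6.31% were higher at that p. MtnE had 0.731, 0.892, 1.54 and 0.860 CPM at 20 days and 1.80, 2.71 and 3.69 CPM at 30 days, without overlap (log2FC 1.43 ± 0.28, edgeR BH-adjusted p = 0.114, without 5h-c1 0.0291, DESeq2 0.00142). Its level was low, at 11 to 67 counts per sample. MtnA was the lowest of them, at 0.45 ± 0.15 (adjusted p = 0.322).

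The detoxification families held members with a log2FC above and below 0. Of all genes tested in the 10 samples, 6.31% were higher and 3.65% lower at an unadjusted p under 0.05. Of 75 tested cytochromes P450, 10 were higher and 4 lower at an unadjusted p under 0.05 (median log2FC -0.03), from Cyp4d1 (-0.81 ± 0.25, edgeR BH-adjusted p = 0.266) to the DEG Cyp4p3. Of 29 UDP-glycosyltransferases 6 were lower and 2 higher, from Ugt37A2 (-0.74 ± 0.20, adjusted p = 0.198, without 5h-c1 0.0376) to Ugt36F1 (0.37 ± 0.23), and of 31 glutathione S-transferases 3 were higher and 1 lower, from GstD7 (-0.54) to GstE9 (0.54), which overlaps imd on the other strand. These counts depended on the samples: of the UDP-glycosyltransferases 1 was lower and 3 higher in the 1-day samples and 2 lower and 1 higher without M-1, and of 32 glutathione S-transferases tested without M-1 none was higher or lower at that p.

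Scp1 was the only gene called by edgeR in the 10 samples among 23 genes of muscle structure, whose median log2FC was -0.05, and DESeq2 called 3 of them (1 higher, 2 lower). TpnC73F, a troponin C gene and thus of the same calcium-binding EF-hand family as Scp1, was at the other end with 20.2, 21.1, 19.2 and 15.6 CPM at 20 days and 25, 29.0 and 38.0 CPM at 30 days. The ages did not overlap (log2FC 0.66 ± 0.14, edgeR BH-adjusted p = 0.134, without 5h-c1 0.0465, DESeq2 0.00148). The summed level of the muscle list overlapped, at 3253 to 3927 CPM at 20 days and 3109 to 4194 CPM at 30 days.

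Of 21 phototransduction genes, which act in the eye, 4 were lower and 0 higher at an unadjusted p under 0.05, but 0 were lower and 1 was higher both in the 1-day samples and without M-1. The extremes in the 10 samples were the protein kinase C gene inaC (-0.47 ± 0.19) and the rhodopsin gene Rh5 (0.22 ± 0.19). Of 28 neuropeptide genes 3 were higher and 2 lower, between Crz (corazonin, 0.80 ± 0.27) and Nplp3 (-1.14 ± 0.21, edgeR BH-adjusted p = 0.114, DESeq2 0.00899), both at fewer than 3 CPM. At that p, 6.31% of all genes were higher and 3.65% lower. Of 12 clock genes 3 were higher, with tim highest (0.55 ± 0.18, adjusted p = 0.294) and Clk lowest (-0.15 ± 0.14). In the 1-day samples 4 were higher and Clk was at 0.06. The summed clock level was highest in the 5-hour samples, at 1476.8 and 1506.2 CPM, and 20 days had no such sample. They were frozen 5 hours after the mixed collection, so the hour of day was not balanced between the ages. Its part was not tested. The gene tim overlaps non-coding RNA genes on both strands.

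No tested member of the lists of growth or energy metabolism was called by edgeR in the 10 samples. Cytosolic ribosomal proteins had a median log2FC of -0.17 with 8 of 85 lower at an unadjusted p under 0.05, and nuclear subunits of the respiratory chain one of -0.15 with 5 of 64 lower. In the 1-day samples these medians were -0.01 and -0.03, with 2 members lower in each list, and without M-1 2 were lower in each. Of all genes, 3.65% were lower at that p in the 10 samples, 3.26% in the 1-day samples and 229 of 10192 without M-1. The mitochondrial ribosomal proteins had 10 of 71 lower, with a median of -0.06 in the 10 samples and -0.07 in the 1-day samples, where 4 were lower, and without M-1 2 were lower. Insulin and TOR signalling, DNA replication, glycolysis, the citric acid cycle, fatty acid oxidation, fatty acid synthesis and the proteasome had medians between -0.13 and 0.02 and at most 2 members in either direction at that p, and DESeq2 called 1 higher and 1 lower among the genes of fatty acid synthesis and storage. Of the stress lists, the unfolded protein response had 3 of 14 members higher (median 0.08), Hsp70 and Hsp68 0 of 4 (0.25), the small heat shock proteins 1 of 8 lower (-0.20), and the antioxidant enzymes 2 of 15 higher and 1 lower (0.01). Lysozymes had a median of 0.52 with 1 of 5 higher. Septate junctions, odorant-binding proteins, the Npc2 family, ecdysone genes and mitochondrially encoded genes had medians between -0.08 and 0.04 in the 10 samples, with no member called by edgeR. DESeq2 called 1 higher and 1 lower of the Npc2 family and 1 higher of the odorant-binding proteins. In the 1-day samples the septate junctions had a median of 0.14, with 5 of 17 higher and 0 lower at that p. The odorant-binding proteins had one of 0.17, with 3 of 23 higher and 1 lower, where 9.43% of all genes were higher and 3.26% lower.

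**Figure D5:**
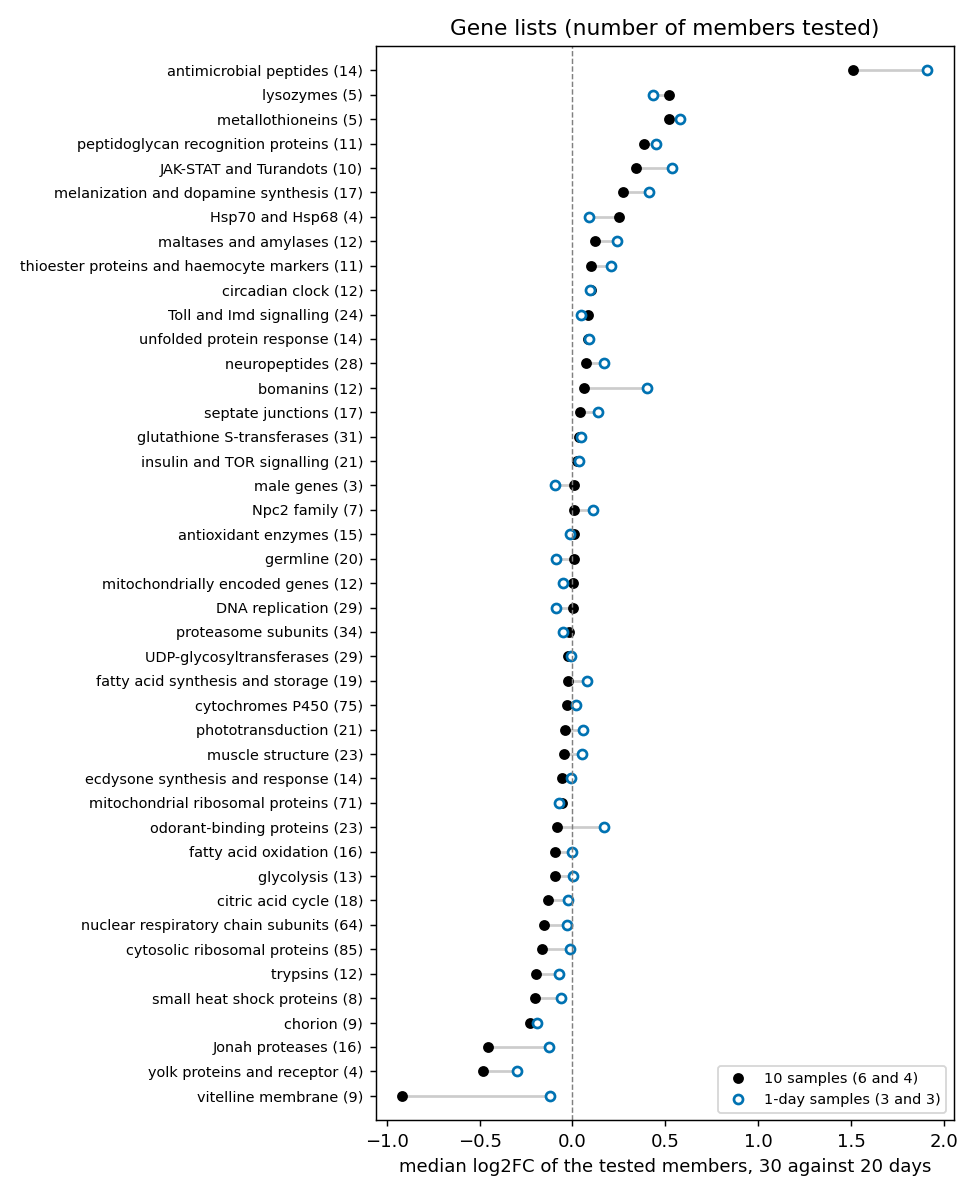
Median log2FC, 30 against 20 days, of the tested members of each of 43 gene lists in the 10 samples (filled) and in the 1-day samples (open), with the number of members tested in brackets. The antimicrobial peptides stand at 1.51 and 1.91, and the vitelline membrane genes at -0.92 in the 10 samples but -0.12 in the 1-day samples.

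The same ages were compared in Smurfs, in samples that share no library with the non-Smurfs, 6 of 30 days and 4 of 20 days, whose mixed sample of the older group was likewise labelled 32 days. The test of whether the effect of age differed between the states called 0 of 10387 genes (edgeR, interaction of age with Smurfness; 374 at an unadjusted p under 0.05; 0 by DESeq2). In Smurfs alone 1 of 10157 genes passed (0.00985%), again Scp1. Its level there was 48.7, 39.1, 46.5 and 39.7 CPM at 20 days and 11.9 to 19.7 CPM at 30 days (log2FC -1.57 ± 0.14, edgeR BH-adjusted p = 0.00271). The fall of Scp1 in Smurfs differed from that in non-Smurfs by 0.08 ± 0.19 on the log2 scale (adjusted p = 1.0).

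For the other 3 DEGs, all Smurf samples of 20 days lay above all non-Smurf samples of that age, a difference not tested here. CG7720 had 73.4 to 78.2 CPM in the 4 Smurf samples of 20 days, within the 30-day range of non-Smurfs, and its log2FC with age in Smurfs was 0.27 ± 0.18. Apc had 201.8 to 242.1 CPM in those Smurfs and a log2FC of 0.06 ± 0.07, and Cyp4p3 had 24.1 to 38.1 CPM and one of 0.30 ± 0.16. The difference in the effect of age between the states was -0.61 ± 0.23 for CG7720, -0.23 ± 0.08 for Apc and -0.45 ± 0.20 for Cyp4p3, each with an edgeR BH-adjusted p of 1.0. These 3 genes were selected by their rise in the same non-Smurf samples. A smaller rise in Smurfs can follow from that selection, so no difference between the states can be read from it. The antimicrobial peptides had a median log2FC with age of 0.74 in Smurfs, with 4 of 15 higher at an unadjusted p under 0.05, where 5.17% of all genes were in Smurfs, from higher levels: AttC was at 507.7 to 860.6 CPM in Smurfs of 20 days.

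The values of non-Smurfs at 40 days are given beside those at 30 days, since both comparisons share the 4 samples of 20 days. At 40 days 129 of 10053 genes were called against 20 days (1.28%), 103 of them upregulated. Scp1 was at 8.41 to 13.4 CPM at 40 days (log2FC -2.0 ± 0.14, edgeR BH-adjusted p = 0.000221), near its 30-day level. CG14245, at 29.8 to 55.5 CPM, had a log2FC of 1.69 ± 0.16 (adjusted p = 0.00091), and Cyp4p3, at 28.7 to 46.0 CPM, one of 1.08 ± 0.15 (0.00985). Apc was at 154.0 to 216.4 CPM, overlapping the 20-day samples (log2FC 0.15 ± 0.09, adjusted p = 0.414), and CG7720 at 50.9 to 109.2 CPM (0.88 ± 0.21, 0.0786). The antimicrobial peptides had a median log2FC of 2.79 at 40 days, none called, with the 40-day sample 1d-o at the top: AttC was at 1425 CPM in it and at 170.7 to 323.3 CPM in the other 5.

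The spread between samples of one age was described by the relative standard deviation (RSD) per gene. In the 1-day samples its median over 9998 genes was 0.0791 at 20 days and 0.0660 at 30 days, and 43.4% of genes had the higher RSD at 30 days. Over all samples the medians were 0.0842 (n = 4) and 0.110 (n = 6), with 66.0% of genes higher at 30 days, a set that includes 5h-c1. In that set the ages also differ in the number of samples and in the collections, since only 30 days has 5-hour samples. The part of these differences was not tested. The direction of the difference in spread thus depended on the samples included.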

How the data were processed

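RNA-seq counts were taken as deposited. The authors prepared poly(A) libraries with a stranded kit, sequenced them in paired-end mode, removed no reads after FastQC, aligned with HISAT2 on BDGP6 and counted reads per gene with featureCounts; its strand and multi-mapping settings are not given in the sources used here. The values are whole-number counts for 17737 genes, not normalized. All columns were mapped to samples (0 unmapped). Positions and overlaps come from the BDGP6.54 annotation, joined by gene identifier (138 genes unmatched).

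Groups were tested with edgeR 4.0.16 (R 4.3.3): filterByExpr, TMM, glmQLFit and glmQLFTest, two-sided, BH adjustment over all genes tested, threshold 0.05. SEs of log2FC were derived from the F statistic. CPM levels use TMM factors over all 32 samples. DESeq2 1.42.0 gave the vst values of the PCA and an alternative Wald test. Scripts were tested on simulated data. Replicates of one age differed by more than sampling noise (chi-square per degree of freedom at least 6.79 over 21 pairs), so each counted as 1.

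Alternatives were RLE factors, DESeq2, no filter or at least 10 counts in every sample, all non-Smurfs in the fit, collection time as a term, leaving out the 5-hour or mixed samples, and leaving out each sample. The samples and the 43 gene lists (15 entries unmatched) were chosen with earlier results of these data known. Named genes are the DEGs of each comparison, for each list the called members with the highest and lowest log2FC or, with none called, the tested ones, and Drs, Rel, dl, the yolk protein and roX genes as checks. Extreme members are named for 20 lists only, the others being given by counts and medians, a choice made after values were seen. The other antimicrobial peptides, the uncalled extremes of lists with a called member (such as TpnC73F and Cyp4d1) and the genes of the closing section were also singled out after their values were seen.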

Additional observations from a re-analysis of the deposited data

Results flagged for a closer look

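Values far from the other samples of their age were looked for in 152 groups of 4 or 6 values (the CPM of the genes described sample by sample, the summed CPM of the 43 lists, depth, composition and PC scores). The gap of the highest or lowest sample to its neighbour was set against the range of the group, with Dixon's 95% critical value. Chance flags about 1 in 20 groups, and 12 were found, none of them for 5h-c1.

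Of these, 6 belong to the mixed sample of 20 days, M-1. Its summed level was the lowest of 20 days for Toll and Imd signalling (2331.4 CPM) and for JAK-STAT and Turandots (1055.1 CPM), and the highest for bomanins (1116.9 CPM). The flagged immune values of M-1 were of antimicrobial peptides, where it stood above the other 3 samples of its age. It had 32.1 CPM of DptA (others 8.13 to 12.2), 27.6 CPM of Dro (5.28 to 7.86), 31.8 CPM of Mtk (6.88 to 9.59) and 683.3 CPM of Drs (129.1 to 213.4). Its summed antimicrobial peptide level was 1014.4 CPM (272.6 to 335.8), and its summed insulin and TOR signalling level was 2121.5 CPM (2073.9 to 2078.2). The other 2 at 20 days were CG14245 in 1d-b at 13.6 CPM (12.3 to 12.4) and the summed fatty acid oxidation level of 1d-c at 2380.1 CPM (2661.5 to 2699.0).

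At 30 days, 1d-h stood above the other 5 samples in eggshell genes, with a summed chorion level of 3216.7 CPM (355.8 to 1315.8) and a summed vitelline membrane level of 1587.1 CPM (437.9 to 813.9). Def, the defensin gene, was at 50.6 CPM in 5h-c2 (9.41 to 17.0), and Drs was at 586.4 CPM in 1d-g (189.7 to 336.1).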

How the results depend on the processing

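The count of 4 DEGs in the 10 samples became 1 with RLE factors, with all 16 non-Smurfs in the fit, with collection time as a term and without the mixed samples. It became 10 without the 5-hour samples and 198 with DESeq2, and 1 to 91 as each sample was left out, with 91 without 5h-c1. The count of 5 in the 1-day samples became 289 with DESeq2 and 105 without a filter, and 0 to 151 as each sample was left out. The interaction with Smurfness called 0 in every alternative run, as did DESeq2 (374 at an unadjusted p under 0.05 by edgeR, 379 by DESeq2). In Smurfs Scp1 was the 1 gene called, also in the 1-day Smurfs, a setting chosen after seeing the data. The PC1 difference was 3.57 to 11.5 as each sample was left out, and passed the exact test without 5h-c1; on log2 CPM it was 17.45 (adjusted p = 0.0571). Of 1152 values of 61 named genes under these settings, 1053 kept their direction and side of the threshold. The sign turned in 25, of genes without a call: Drs (-0.0802 to 1.02 as each sample was left out), Cp7Fa (leave-one-out range -1.34 to 1.51), Jon25Bi (-0.0299 to 0.431), BomT3 (-0.185 to 0.0571; 0.0285 with collection time, 0.0697 without mixed samples, 0.24 at 1 day), PGRP-SC1b (-0.381 to 0.156; 0.276 with collection time, 0.228 without 5-hour samples, 0.029 without mixed samples, 0.416 at 1 day), dome (-0.0451 to 0.077; 0.148 with collection time, 0.138 without 5-hour samples, 0.134 at 1 day), yl (0.0227, 0.0129 and 0.0235 in the same 3 settings) and Clk (0.0582 at 1 day). The causes were not tested. No paired analysis was possible because no sample of 20 days shares a replicate label with one of 30 days. With 3 to 6 pools per age, changes under the spread of pools were not detectable, and genes of few counts, such as MtnE and Nplp3, are the least precise.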

Other observations

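Of the 91 genes called without 5h-c1, some are named here, picked after their values were seen and with no test of any group. With 5h-c1 included, edgeR called none of these named genes. Their BH-adjusted p in the 10 samples ran from 0.12 (CG13947) to 0.411 (NimB1), and the p-values below are those without 5h-c1 unless another comparison is named. All 91 had the same sign of log2FC with 5h-c1 included, 66 of them (72.5% of the 91, 33.3% of the 198) were among the DESeq2 calls of the 10 samples, which on simulated data held more false genes than the nominal level, and in 34 the level of 5h-c1 lay within the range of the 20-day samples. These fits share every sample but 5h-c1, so the shared signs and calls are no independent support for the 91. Most of the 91 were called only once 5h-c1 was left out, so the count of 34 can follow from that selection. Its share over all genes was not computed. The called genes included the peptidoglycan recognition protein genes PGRP-SB1 (log2FC 0.99 ± 0.14, edgeR BH-adjusted p = 0.0236), PGRP-SA (1.28 ± 0.24, 0.0459) and PGRP-SD (0.74, 0.0470). They also included the serpin genes Spn88Eb (1.26 ± 0.20, 0.0264), Spn77Ba (0.43 ± 0.08, 0.0459) and Spn42Da (0.34, 0.0470). PGRP-SD, Spn77Ba and Spn42Da overlap genes on the other strand. NimB1, a nimrod family gene (0.89 ± 0.14, 0.0236), overlaps NimB2 on the other strand. Spn88Eb had 58.9 to 85.1 CPM at 20 days, 103.9 to 220.8 CPM in the 5 other samples of 30 days and 83.9 CPM in 5h-c1.

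Outside immunity, Gnmt, the glycine N-methyltransferase that consumes S-adenosylmethionine, had a log2FC of 2.26 ± 0.36 (edgeR BH-adjusted p = 0.0264), from 4.85 to 14.5 CPM at 20 days to 28.1 to 65.1 CPM in the 5 samples of 30 days, with 13.9 CPM in 5h-c1; it overlaps CG43630 on the other strand. Arc1, a capsid-like gene of the nervous system, rose by 1.04 ± 0.12 (0.0123). Both were also called at 40 against 20 days, with a log2FC of 3.35 and 1.14. That comparison shares the 20-day samples, so it is no independent support. Mmp1, a matrix metalloproteinase gene, had 0.44 (0.0470) and overlaps Pof on the other strand. It was not called at 40 against 20 days (log2FC 0.18, edgeR BH-adjusted p = 0.467). Of the 9 that fell, CG13947 had the largest decrease (log2FC -2.53), from 28.8 to 116.3 CPM at 20 days and 4.84 to 17.8 CPM in the 5 samples of 30 days.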
